A study of Mus musculus with 9 samples.

Results

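The 10 genes described here are the arterial Notch genes Dll4, Jag1, Notch1, Notch4, Hey1, Hey2 and Efnb2 and the vascular connexin genes Gja4, Gja5 and Gja1. Every probe set that the platform annotation assigned to 1 of these symbols alone was taken, which gave 24 of the 45037 probe sets that were not controls; the arrays named 18193 genes in all. The genes were selected on the same signals, in the same comparisons of groups, that are given below. Their values are therefore a description, and no test of them is offered as support. Where a gene had several probe sets, the one with the highest mean over all arrays is given first.

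The arrays measured RNA from the atherosclerotic aorta of female APOE-/- mice, which lack mouse apolipoprotein E, on a C57BL/6 background. All mice, controls included, were obtained at 8 weeks of age and ate a diet with 0.2% cholesterol and 10% coconut oil for 30 weeks before a single tail vein injection, and were killed 10 days after it. The injection held vehicle (phosphate-buffered saline, PBS), the empty helper-dependent adenoviral vector HDAd-0, or HDAd-gE3, the vector that carries human apolipoprotein E3, both vectors at the same number of viral particles per body weight. Each array held RNA pooled from 3 aortas, cut from sinus to arch, and each group had 3 arrays, so 1 value averages 3 mice and their spread is not seen. Values of single arrays are log2 signals and follow the order of the replicate numbers, which are 1, 3 and 4 for PBS, 3, 4 and 5 for HDAd-0, and 2, 3 and 4 for HDAd-gE3. With 3 arrays against 3, an exact permutation test cannot give a p under 0.1, and the number of arrays limits every value.

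Notch receptors are single-pass membrane proteins that are cut when a Delta or Jagged ligand on a neighbouring cell binds them. The freed intracellular part joins the DNA-binding protein RBPJ and switches on genes such as the Hey repressors. In endothelium this pathway sets and keeps arterial identity, with ephrin B2 as a classical arterial marker, while connexins form the gap junctions through which endothelial and smooth muscle cells exchange ions and small molecules. Several of these genes are not confined to endothelium: for example, Jag1, Hey2 and Gja1 are also known in smooth muscle, and Gja5 in atrial heart muscle. In whole tissue the cell source of a signal was not measured, for Gja4 and Notch4 as for the others.

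In the leading probe sets, every HDAd-0 array lay above every PBS array for Gja4, Notch4, Dll4 and Gja5 (9.43% of all probe sets). For Gja5 the nearest arrays read 5.331 with HDAd-0 and 5.33 with PBS. For Gja4, Notch4 and Dll4 every HDAd-0 array also lay above every HDAd-gE3 array (9.56% of all probe sets). Gja4 read 1.34-fold and Notch4 1.27-fold above PBS on average. With HDAd-gE3 the mean of Gja4 was 1.43-fold lower and that of Notch4 1.57-fold lower than with HDAd-0. The means of Jag1, Hey1, Hey2, Efnb2 and Gja1 differed by at most 0.12 on the log2 scale in any comparison of leading probe sets. The probe sets of Notch1 disagreed on whether the HDAd-0 arrays lay apart. No member passed an adjusted p under 0.05 (limma across all probe sets, Benjamini-Hochberg) in any comparison. In RNA from whole tissue, fewer cells of a type and less RNA per cell cannot be told apart.

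The promoters of 9 of the 10 genes were matched by symbol in the RefSeq set of build GRCm38.p6, which gives 250 bases before and 50 after the annotated start. Hey1 was the gene without an entry. Gja4, Notch4 and Dll4 are shown because their signals were higher together with HDAd-0, and Hey2 because it alone held the letters of the RBPJ core. Capitals mark matches, on either strand, to the RBPJ core TGGGAA or to the ETS motif AGGAAG, and all are written 5′ to 3′ along the gene. Gja4 lies on the minus strand at chr4:127313990-127314289, Notch4 on the plus strand at chr17:34564045-34564344, Dll4 on the plus strand at chr2:119325534-119325833 and Hey2 on the minus strand at chr10:30842734-30843033.
Gja4: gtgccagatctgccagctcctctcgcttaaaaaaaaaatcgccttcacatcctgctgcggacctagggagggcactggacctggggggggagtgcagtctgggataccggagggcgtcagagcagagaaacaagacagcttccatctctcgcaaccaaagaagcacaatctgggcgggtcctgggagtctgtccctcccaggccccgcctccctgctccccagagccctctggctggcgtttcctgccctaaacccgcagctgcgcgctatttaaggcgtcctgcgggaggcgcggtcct
Notch4: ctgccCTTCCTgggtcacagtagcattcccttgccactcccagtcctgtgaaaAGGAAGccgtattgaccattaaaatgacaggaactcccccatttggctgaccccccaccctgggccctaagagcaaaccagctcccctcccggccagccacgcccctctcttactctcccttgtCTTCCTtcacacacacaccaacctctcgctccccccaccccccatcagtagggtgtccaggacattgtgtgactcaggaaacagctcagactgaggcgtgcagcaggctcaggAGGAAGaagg
Dll4: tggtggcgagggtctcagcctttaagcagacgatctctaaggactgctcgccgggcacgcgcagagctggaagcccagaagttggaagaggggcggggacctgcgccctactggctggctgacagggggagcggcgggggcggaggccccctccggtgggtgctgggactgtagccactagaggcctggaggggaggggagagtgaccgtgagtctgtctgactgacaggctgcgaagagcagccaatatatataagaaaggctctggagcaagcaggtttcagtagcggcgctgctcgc
Hey2: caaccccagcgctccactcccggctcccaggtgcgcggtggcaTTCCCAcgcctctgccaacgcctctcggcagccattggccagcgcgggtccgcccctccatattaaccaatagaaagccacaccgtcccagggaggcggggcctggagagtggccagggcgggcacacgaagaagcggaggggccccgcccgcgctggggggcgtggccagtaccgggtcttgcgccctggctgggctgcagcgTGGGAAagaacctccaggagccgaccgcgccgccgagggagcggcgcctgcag

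The RBPJ core was found in 1 of the 9 promoters, that of Hey2, against 25.6% of 32851 promoters of the same length. Hey2 held it at bases 248 to 253 on its own strand and at bases 44 to 49 on the opposite strand, and each match was also a match to the longer form GTGGGAA, found in 6.38% of promoters. The ETS motif, named for a transcription factor family active in endothelium, was in the promoters of Gja5, Gja1 and Notch4 (35.4% of all promoters), and Notch4 held it 4 times. Neither the SOX motif AACAAT (10.7%) nor the E-box CACGTG (7.15%) was in any of the 9, and TATAAA (13.6%) was in that of Efnb2. All motifs were searched on both strands. A match in 300 bases is a description of the letters and not of binding.

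**Figure D1:**
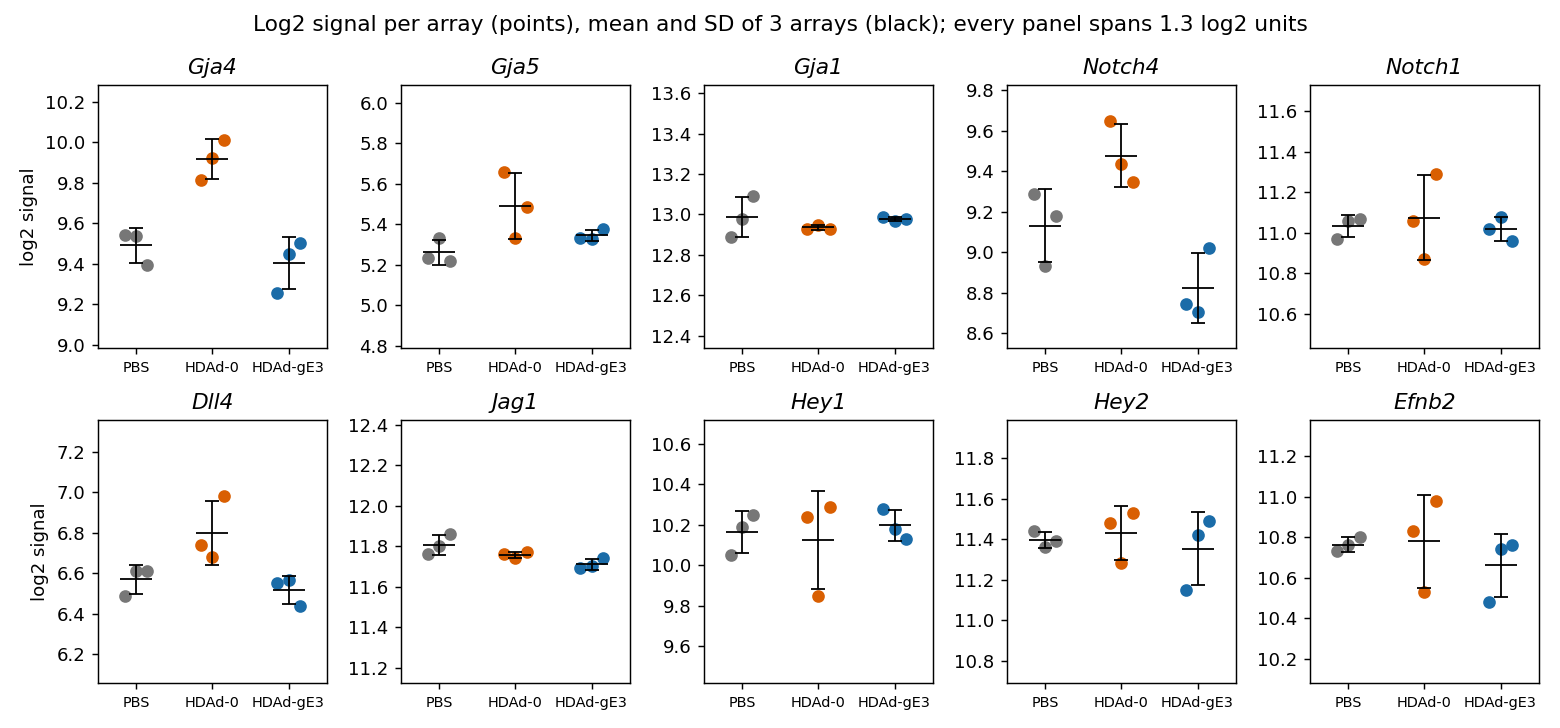
Log2 signal of the leading probe set of each of the 10 genes (vertical axis) in the PBS, HDAd-0 and HDAd-gE3 groups (horizontal axis); points are arrays, the long black bar is the mean and the short bars are 1 SD of 3 arrays. The 3 HDAd-0 arrays of Gja4, between 9.81 and 10.01, lie above all 6 others, while the groups of Hey1 overlap.

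Among the ligands, Dll4, the Delta ligand of arterial endothelium, read 6.49, 6.61 and 6.61 with PBS, 6.74, 6.68 and 6.98 with HDAd-0 and 6.55, 6.56 and 6.44 with HDAd-gE3. Every HDAd-0 array lay above every array of both other groups, which overlapped each other. The mean was 0.23 ± 0.091 (SE) higher with HDAd-0 than with PBS on the log2 scale and differed by -0.28 ± 0.091 between HDAd-gE3 and HDAd-0, while HDAd-gE3 and PBS differed by -0.053 ± 0.091. The other Dll4 probe set gave 0.24 ± 0.15 and -0.36 ± 0.15, with overlapping groups in both comparisons. By mean signal the leading probe set stood at percentile 49.1 of all probe sets and the other at 40.9. HDAd-0 replicate 5 was the highest of the 9 arrays in both probe sets, at 6.98 and 6.35.

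Jag1, the Jagged ligand that also signals between endothelium and smooth muscle, read 11.76, 11.80 and 11.86 with PBS, 11.76, 11.74 and 11.77 with HDAd-0 and 11.69, 11.70 and 11.74 with HDAd-gE3. Every HDAd-gE3 array was below every PBS array, and HDAd-0 overlapped both. The differences were small: -0.049 ± 0.060 for HDAd-0 against PBS, -0.048 ± 0.060 for HDAd-gE3 against HDAd-0 and -0.096 ± 0.060 for HDAd-gE3 against PBS. The 95% confidence interval of the last ran from -0.23 to 0.040. The other 2 Jag1 probe sets went different ways, at -0.19 ± 0.18 and 0.072 ± 0.12 for HDAd-0 against PBS, and the low value of 8.12 on HDAd-0 replicate 4 lay under all other arrays of the first.

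Of the receptors, Notch4, which is found mainly in endothelium, read 9.29, 8.93 and 9.18 with PBS, 9.65, 9.43 and 9.35 with HDAd-0 and 8.75, 8.70 and 9.02 with HDAd-gE3. The HDAd-0 arrays were the 3 highest of the 9, and PBS and HDAd-gE3 overlapped through PBS replicate 3 and HDAd-gE3 replicate 4. HDAd-0 differed from PBS by 0.345 ± 0.13 and HDAd-gE3 from HDAd-0 by -0.65 ± 0.13 (95% confidence interval -0.945 to -0.36), the widest difference of any leading probe set of the 10 genes. HDAd-gE3 against PBS gave -0.31 ± 0.13. A further probe set, at 8.78, 8.55 and 8.68, then 9.15, 8.90 and 8.81, then 8.32, 8.39 and 8.67, followed the first with a Pearson r of 0.981 over the 9 arrays and gave 0.285 ± 0.12 and -0.49 ± 0.12. The third read between 2.47 and 2.79, near the lowest signals of the arrays, and carries no order of the groups.

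Notch1, the receptor that responds to flow in arterial endothelium, read 10.97, 11.06 and 11.07 with PBS, 11.06, 10.87 and 11.29 with HDAd-0 and 11.02, 11.08 and 10.96 with HDAd-gE3. These groups overlapped, and the HDAd-0 arrays alone spanned the whole range of the 9. The differences were 0.043 ± 0.10 and -0.056 ± 0.10. The other Notch1 probe set read 8.30, 8.36 and 8.42, then 8.50, 8.59 and 8.64, then 8.31, 8.43 and 8.43. Its HDAd-0 arrays were highest, like those of Gja4, but its lowest mean was that of PBS (8.36, against 8.39 with HDAd-gE3). Here HDAd-0 lay above both other groups, by 0.215 ± 0.072 over PBS and with -0.185 ± 0.072 for HDAd-gE3 against HDAd-0. The 2 probe sets had the same sign in these comparisons but correlated at 0.349 over the 9 arrays. Whether the HDAd-0 arrays lay apart for Notch1 thus rests on the choice of probe set.

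The groups of both Hey genes overlapped. Hey1, a Notch-induced repressor, read 10.05, 10.19 and 10.25 with PBS, 10.24, 9.85 and 10.29 with HDAd-0 and 10.28, 10.18 and 10.13 with HDAd-gE3. Hey2, its arterial relative, read 11.44, 11.36 and 11.39, then 11.48, 11.28 and 11.53, then 11.15, 11.42 and 11.49 in the same order of groups. For Hey1 the array of HDAd-0 replicate 4 was the lowest of the 9, and for Hey2 that of HDAd-gE3 replicate 2. Hey1 differed by -0.038 ± 0.12 (95% confidence interval -0.31 to 0.235) for HDAd-0 against PBS, and Hey2 by 0.033 ± 0.10 (-0.20 to 0.27). For HDAd-gE3 against HDAd-0 they gave 0.069 ± 0.12 and -0.079 ± 0.10.

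Efnb2, which encodes ephrin B2, the arterial membrane ligand of Eph receptors, read 10.73, 10.76 and 10.80 with PBS, 10.83, 10.53 and 10.98 with HDAd-0 and 10.48, 10.74 and 10.76 with HDAd-gE3. The PBS arrays sat close together inside the spread of HDAd-0. Its differences were 0.017 ± 0.12, -0.12 ± 0.12 and, for HDAd-gE3 against PBS, -0.10 ± 0.12. Of its other 3 probe sets, 1 read 6.61, 6.49 and 6.65 with PBS and 6.83, 7.05 and 6.83 with HDAd-gE3, which did not overlap, while the remaining 2 differed between these groups by 0.027 ± 0.18 and 0.036 ± 0.11. The Efnb2 probe sets thus went different ways between HDAd-gE3 and PBS.

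Among the connexins, Gja4, a gap junction protein gene known in arterial endothelium, read 9.54, 9.54 and 9.39 with PBS, 9.81, 9.92 and 10.01 with HDAd-0 and 9.26, 9.45 and 9.50 with HDAd-gE3. The HDAd-0 arrays formed a group of their own above the other 6, and PBS and HDAd-gE3 overlapped. HDAd-0 differed from PBS by 0.43 ± 0.091 (95% confidence interval 0.22 to 0.63), HDAd-gE3 from HDAd-0 by -0.515 ± 0.091 (-0.72 to -0.31), and HDAd-gE3 from PBS by -0.089 ± 0.091 (-0.295 to 0.12). Gja4 had 1 probe set.

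Gja5, the connexin gene of arterial endothelium and atrium, read 5.23, 5.33 and 5.22 with PBS, 5.66, 5.33 and 5.48 with HDAd-0 and 5.33, 5.33 and 5.38 with HDAd-gE3. HDAd-0 lay above PBS only by the third decimal between the nearest arrays (5.331 against 5.33), and overlapped HDAd-gE3. The differences were 0.23 ± 0.088 and -0.145 ± 0.088. The signal of Gja5 was low: by mean over the arrays, its only probe set stood at percentile 35.6 of all probe sets. Gja1, the most widely expressed connexin gene, read 12.89, 12.98 and 13.09, then 12.93, 12.95 and 12.93, then 12.99, 12.97 and 12.98 in its leading probe set. Its groups differed by -0.048 ± 0.067 (95% confidence interval -0.20 to 0.10) and 0.041 ± 0.067, and 4 further probe sets by between -0.036 and 0.041 in these comparisons. The last Gja1 probe set read 7.25, 7.50 and 7.06 with HDAd-gE3 against 7.03, 6.52 and 7.15 with HDAd-0, a difference of 0.37 ± 0.17 with overlapping groups.

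**Figure D2:**
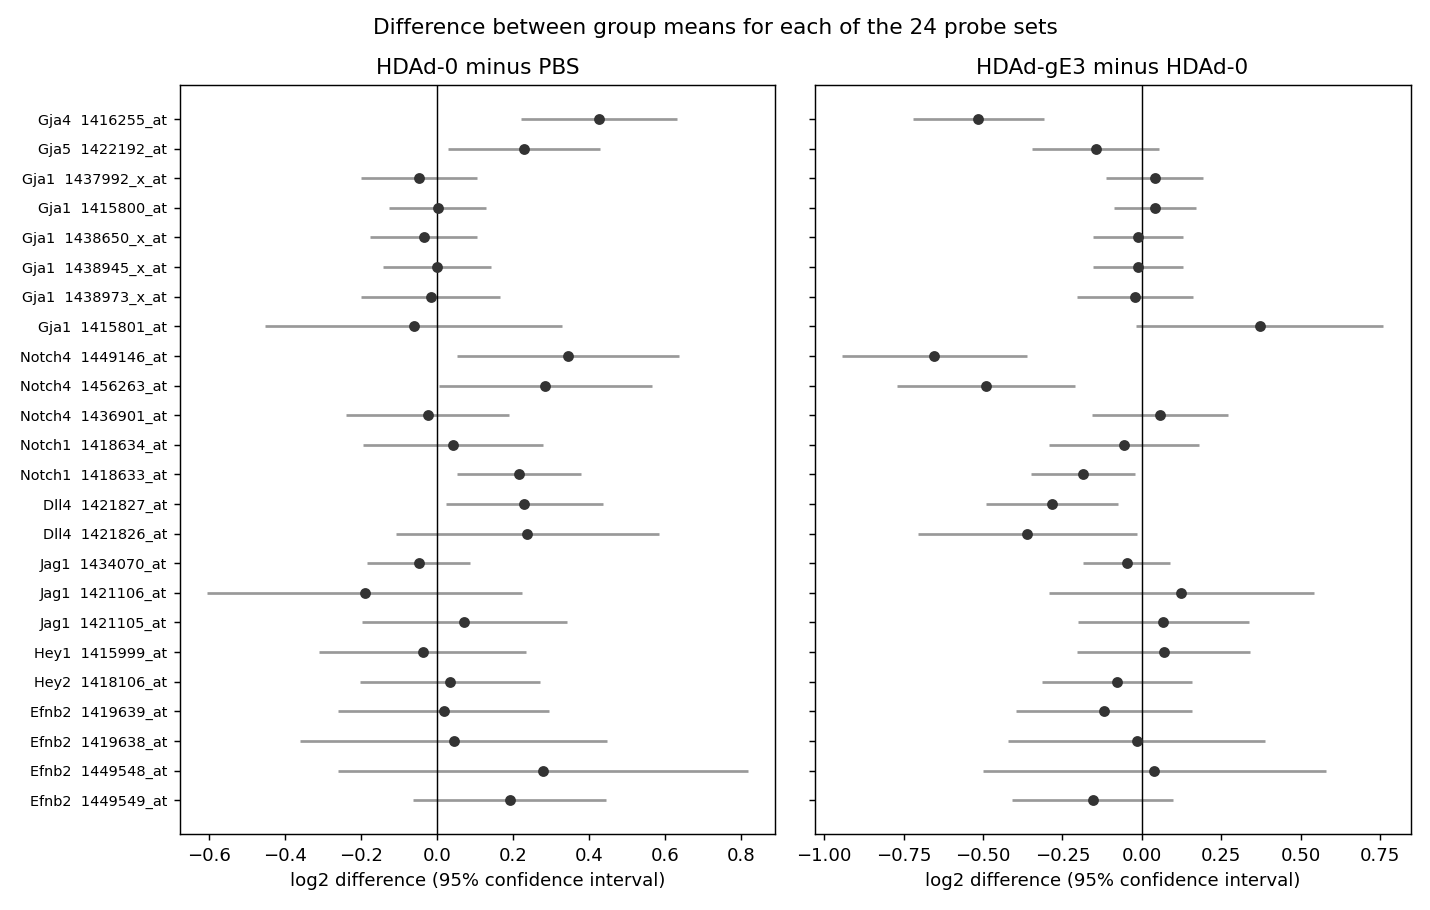
Difference between group means on the log2 scale (horizontal axis) for each of the 24 probe sets (rows), with HDAd-0 minus PBS on the left and HDAd-gE3 minus HDAd-0 on the right; points are the fitted differences and lines their 95% confidence intervals. Gja4 and the upper 2 Notch4 probe sets lie right of 0 on the left panel and farthest left on the right panel, and the leading Gja1, Hey1 and Hey2 intervals include 0 in both.

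Counted over the 24 probe sets, the members stood as follows against all 45037. For HDAd-0 against PBS none passed the adjusted threshold, which 0.00888% of all probe sets passed, and 6 had an unadjusted p under 0.05 (12.3% of all). The HDAd-0 arrays lay wholly above the PBS arrays for 6 (Gja4, Gja5, Dll4, Notch1 and Notch4 in 2 probe sets; 9.43% of all) and wholly below for 0 (7.46% of all). Without HDAd-0 replicate 4, whose 3′ minus 5′ control signal, a sign of RNA quality, was 1.08 against 0.673 to 0.957 on the others, 13 of the 24 lay wholly above PBS, against 18.2% of all probe sets. These 13 held all 4 Efnb2 probe sets, and this count was added after seeing the data. HDAd-0 replicate 5 was the highest of the 9 arrays for 12 of the 24, and HDAd-0 replicate 4 was the lowest for 6. The lowest adjusted p of a member was 0.174, and the median difference of the 10 genes was 0.038 against 0.010 over all probe sets, with 7 of 10 genes higher against 52.9% of all probe sets.

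For HDAd-gE3 against HDAd-0 none of the 24 passed, and neither did any other probe set (0%), while 6 had an unadjusted p under 0.05 (12.8% of all; limma). The HDAd-gE3 arrays lay wholly below for 5 (Gja4, Dll4, Notch1 and Notch4 in 2 probe sets; 9.56% of all) and wholly above for 1, the leading Gja1 probe set (6.3% of all). Without HDAd-0 replicate 4, 10 lay wholly below, against 17% of all probe sets, a count also added after seeing the data. The median difference of the 10 genes was -0.099 against -0.017 over all probe sets, 2 of 10 were higher against 45.4% of all probe sets, and the lowest adjusted p was 0.173. This comparison and the one above share the HDAd-0 arrays, so high HDAd-0 values enter both.

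Against PBS, HDAd-gE3 left the members near the share of all probe sets or under it. None of the 24 passed (0.00222% of all), 1 had an unadjusted p under 0.05 (Notch4; 11% of all), 1 lay wholly above PBS (Efnb2; 10.6% of all) and 1 wholly below (Jag1; 10.3% of all). The lowest adjusted p was 0.433. For the leading probe sets the order of group means was HDAd-0, PBS, HDAd-gE3 for Gja4, Notch4 and Dll4, where the neighbours PBS and HDAd-gE3 overlapped. It was the same for Notch1, Hey2 and Efnb2, whose groups all overlapped.

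Endothelial markers lay in the same order as Gja4, Notch4 and Dll4 in the comparisons with HDAd-0, but not between HDAd-gE3 and PBS. Of 13 endothelial identity genes, none of which is a member, 12 read higher with HDAd-0 than with PBS (median 0.39). For 9 the HDAd-0 arrays lay wholly above PBS (9.43% of all probe sets), and none passed the adjusted threshold. With HDAd-gE3 12 read lower than with HDAd-0 (median -0.24). Between HDAd-gE3 and PBS 12 of the 13 read higher with HDAd-gE3 (median 0.146), while 2 of the 10 members did (median -0.049). For 6 of the 13 the HDAd-gE3 arrays lay wholly above PBS (10.6% of all probe sets). Pecam1, an endothelial adhesion molecule, differed by 0.565 ± 0.089 and -0.28 ± 0.089, and Vwf, von Willebrand factor, by 0.41 ± 0.070 and -0.38 ± 0.070. Both lay farther from 0 than the list median in each comparison. Other genes of the list did not follow them. Robo4 gave -0.021 ± 0.095 for HDAd-0 against PBS, and Erg gave 0.074 ± 0.080 and -0.038 ± 0.080. Kdr was higher with HDAd-gE3 than with HDAd-0, by 0.24 ± 0.12. The mean of the list ran from 10.05 to 10.12 over the PBS arrays, 10.35 to 10.53 with HDAd-0 and 10.16 to 10.33 with HDAd-gE3, and no group overlapped another.

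The mean of the list, which differed by 0.362 for HDAd-0 against PBS and -0.2 for HDAd-gE3 against HDAd-0, was then subtracted on each array; this shifts every probe set alike and keeps the spacing between genes. For HDAd-0 against PBS, Gja4 differed by 0.064 ± 0.12 (95% confidence interval -0.20 to 0.33), Notch4 by -0.017 ± 0.16, Dll4 by -0.13 ± 0.096 and Gja5 by -0.13 ± 0.10. None of these 4 genes stood above PBS beyond its error on this scale. The subtraction does not separate the number of endothelial cells from RNA per cell. It also rests on the choice of list, whose genes ran from -0.021 (Robo4) to 0.58 (Esam) in this comparison. The list for arterial endothelium described below differed by 0.17 on average, and its mean was not subtracted. The other 6 members, which had differed little, lay between -0.41 (Jag1) and -0.32 (Notch1) after the shift made here, as near-zero genes must. For HDAd-gE3 against HDAd-0, Gja4 differed by -0.315 ± 0.12 (-0.58 to -0.047) and Notch4 by -0.45 ± 0.16 (-0.80 to -0.11), while Dll4 gave -0.083 ± 0.096 and Gja5 0.055 ± 0.10. Hey1 at 0.27 ± 0.11 (0.027 to 0.51) and Gja1 at 0.24 ± 0.11 (0.0029 to 0.48) lay on the other side of 0. Subtracting a list mean that differed by -0.2 raised every difference in this comparison alike. Before the shift Hey1 gave 0.069 ± 0.12 and Gja1 0.041 ± 0.067, with intervals that included 0. None of these genes passed over all probe sets on the shifted scale (limma, adjusted p 0.136 for Gja4, 0.112 for Notch4, 0.15 for Hey1 and 0.177 for Gja1). Notch4 was also -0.47 ± 0.16 (-0.82 to -0.12) with HDAd-gE3 against PBS on this scale, with the second Notch4 probe set at -0.37 ± 0.15. Neither passed over all probe sets (limma, adjusted p 0.172 and 0.214). The groups still overlapped, with PBS replicate 3 at -1.19 and HDAd-gE3 replicate 4 at -1.14 in the leading probe set, relative to the list mean.

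**Figure D3:**
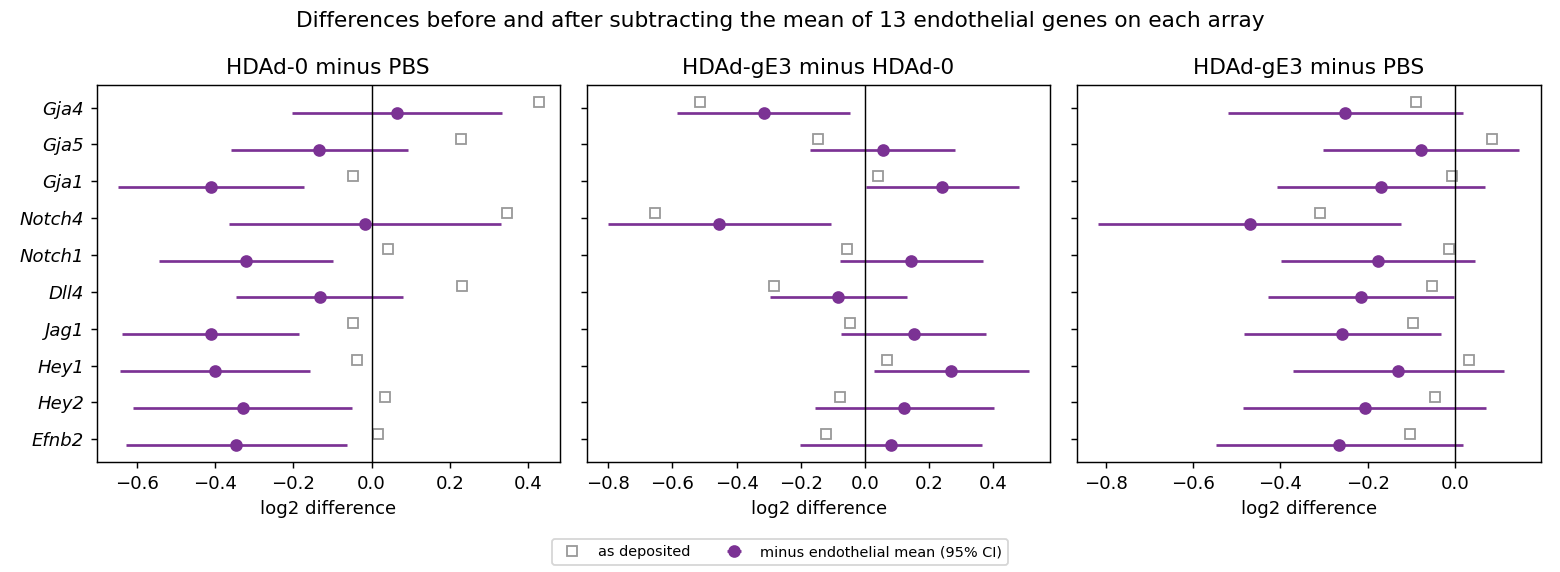
Log2 difference between groups (horizontal axis) for the leading probe set of each of the 10 genes (rows) in the 3 comparisons (panels); open squares are the differences in the deposited signals and filled points the differences after the mean of 13 endothelial genes was subtracted on each array, with 95% confidence intervals. In the left panel Gja4, at 0.43, moves to 0.064, and in the middle panel Notch4, at -0.65, moves to -0.45 with an interval that leaves out 0.

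Some marker lists of other cell types also lay apart between groups. Of the lists given here, only the macrophage list held all 3 groups apart, and in the others at least 1 pair of groups overlapped. The groups of the fibroblast and adipocyte lists overlapped in every comparison. The mean of 8 macrophage genes ran from 11.54 to 11.62 with PBS, 11.64 to 11.72 with HDAd-0 and 11.49 to 11.53 with HDAd-gE3, and 8 of 8 read lower with HDAd-gE3 than with HDAd-0 (median -0.13). Smooth muscle genes read 12.59 to 12.62, 12.42 to 12.51 and 12.61 to 12.66 in the same order, 7 of 8 lower with HDAd-0 than with PBS. Heart muscle genes were present on all arrays, between 10.91 and 12.81 on average, and 10 of 10 were lower with HDAd-0 than with PBS (median -1.07). Liver genes read 7.71 to 8.10 with PBS, 8.55 to 10.14 with HDAd-0 and 8.00 to 8.86 with HDAd-gE3, with 7 of 7 higher with HDAd-0 than with PBS (median 1.46) and 7 of 7 lower with HDAd-gE3 than with HDAd-0 (median -0.86), the same order of directions as Gja4 and Notch4. Neutrophil genes read 9.57 to 11.33 with HDAd-gE3 and at most 9.06 on the other 6 arrays, with 7 of 7 higher than in either other group (medians 1.92 against HDAd-0 and 1.57 against PBS). The 3 measured erythroid genes averaged 8.05 to 8.29 with PBS, 8.68 to 9.05 with HDAd-0 and 8.98 to 9.26 with HDAd-gE3. The means of Alas2 and Slc4a1 rose in that order, while those of Hba-a1, at a low signal, fell (3.63, 3.55 and 3.39). Within their groups HDAd-gE3 replicate 4 was the highest in neutrophil genes, and HDAd-0 replicate 5 in liver and skeletal muscle (8.02) genes. Without these 2 arrays, 6 of the 24 probe sets still lay wholly above PBS with HDAd-0 (16.1% of all) and 7 wholly below HDAd-0 with HDAd-gE3 (24.9% of all). These signals have no true zero, so no marker can be called absent. The part of endothelial, macrophage, smooth muscle, heart muscle, liver, neutrophil and erythroid RNA in the members' values was not tested.

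**Figure D4:**
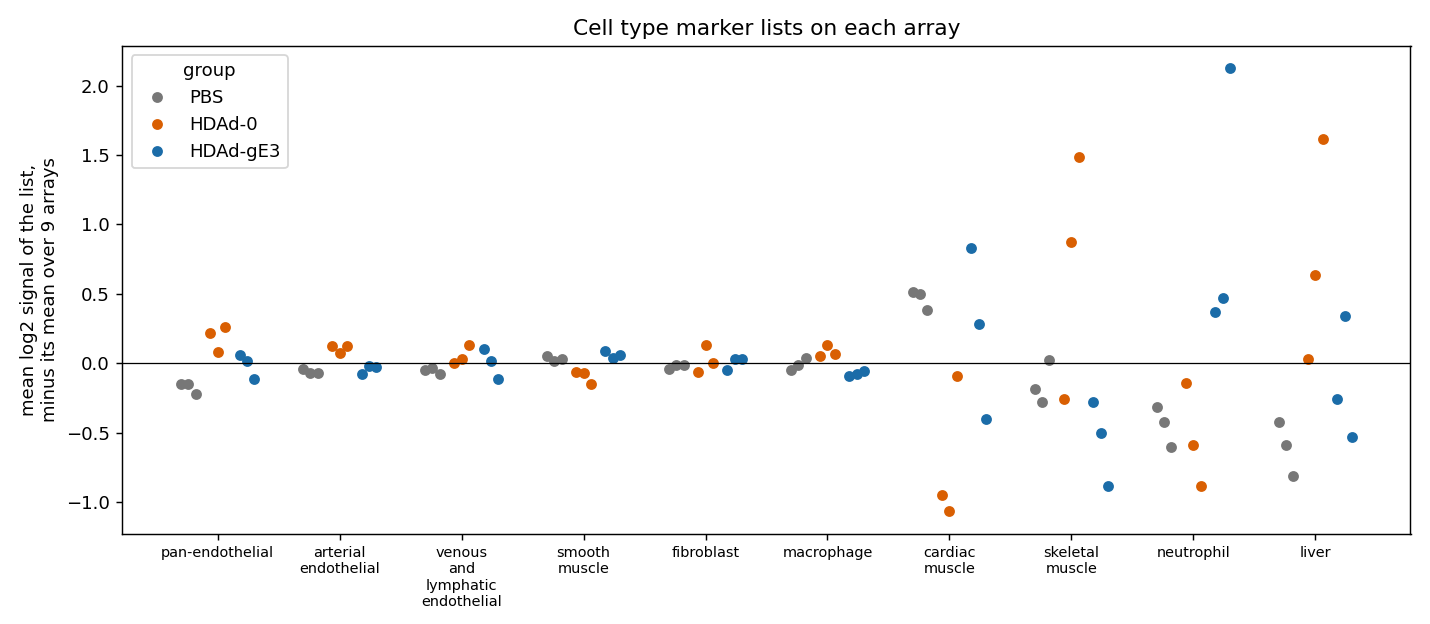
Mean log2 signal of 10 marker lists on each array (vertical axis, relative to the mean of that list over the 9 arrays; lists on the horizontal axis; colours are groups). The HDAd-0 points of the endothelial list lie above those of both other groups, and those of the heart muscle list lie below all PBS points.

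The rest of the Notch pathway was taken from a list of 37 genes, of which 35 had a probe set. Between HDAd-0 and PBS 23 were higher and 12 lower (median 0.049), and between HDAd-gE3 and HDAd-0 12 were higher and 23 lower (median -0.048). No gene of the list passed the adjusted threshold in limma, while unadjusted p under 0.05 was reached by 4 genes, all higher, in the first comparison and by 4, all lower, in the second. The shares of all probe sets, 12.3% and 12.8%, cover both directions. They cannot judge counts that were all higher or all lower. In the first comparison the HDAd-0 arrays lay wholly above PBS for 7 of the 35 genes (9.43% of all probe sets). They lay wholly below for 0 (7.46% of all). In the second comparison the HDAd-gE3 arrays lay wholly below HDAd-0 for 4 (9.56% of all) and wholly above for 0 (6.3% of all). These counts of the list were not tested. The genes farthest from 0 in the first were Maml2, a coactivator of the Notch complex, at 0.47 ± 0.15, the ligand gene Dll1 at 0.435 ± 0.17 and Dtx1, a deltex regulator, at 0.43 ± 0.14. In the second they were Mfng and Lfng, both fringe enzymes that add sugars to Notch receptors, at -0.42 ± 0.12 and -0.27 ± 0.083, and Dtx1 at -0.33 ± 0.14. Genes named for their role differed less: Rbpj by -0.0037 ± 0.066, the smooth muscle receptor gene Notch3 by -0.029 ± 0.098, Notch2 by -0.052 ± 0.061 and the target Hes1 by -0.051 ± 0.078 between HDAd-0 and PBS. Nrarp, a Notch-induced inhibitor, gave 0.24 ± 0.19.

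Of 21 other connexin, pannexin and junction scaffold genes 15 had a probe set, with 9 higher and 6 lower for HDAd-0 against PBS (median 0.042) and 4 higher and 11 lower for HDAd-gE3 against HDAd-0 (median -0.165). None passed. Panx3 at -1.78 ± 0.78, Gja3 at -1.02 ± 0.37 and Gjb2 at 0.63 ± 0.275 differed most in the first comparison, and Gja3 at 1.20 ± 0.37, Panx2 at 0.525 ± 0.45 and Gjb2 at -0.39 ± 0.275 in the second. The heart muscle genes described above moved the same way as Gja3 in both comparisons, and their part in its values was not tested. Of genes named for their vascular role, Gjc1, a connexin gene of smooth muscle, gave 0.056 ± 0.073 and 0.11 ± 0.073, Panx1, a channel that releases ATP, 0.064 ± 0.081 and -0.24 ± 0.081, and Tjp1, a scaffold that binds connexins, 0.038 ± 0.059 and -0.0625 ± 0.059.

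The partners of ephrin B2 were measured in 7 of 8 genes, 4 higher and 3 lower with HDAd-0 than with PBS (median 0.018) and 2 higher and 5 lower with HDAd-gE3 than with HDAd-0 (median -0.11), none past the threshold. Ephb4, the venous receptor of ephrin B2, gave 0.315 ± 0.092 for HDAd-0 against PBS, Ephb1 0.68 ± 0.22 and the ligand Efnb3 -0.64 ± 0.40. For HDAd-gE3 against HDAd-0 Epha4 gave 0.505 ± 0.20, Ephb6 -0.31 ± 0.135 and Ephb3 -0.19 ± 0.11.

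All 13 other genes of a list for arterial endothelium were measured. With HDAd-0 12 read higher than with PBS (median 0.15), and for 7 of them the arrays lay wholly above PBS (9.43% of all probe sets). With HDAd-gE3 12 read lower than with HDAd-0 (median -0.10). None passed the threshold in limma in either comparison. Bmx, a tyrosine kinase of arterial endothelium, differed by 0.59 ± 0.11 and -0.60 ± 0.11, an order of groups like that of Gja4. Klf2, a transcription factor induced by flow, gave 0.45 ± 0.16 but -0.0012 ± 0.16 in the second comparison. Among the SOX factors of arterial endothelium, Sox18 differed by 0.37 ± 0.16 between HDAd-0 and PBS, and Sox17 by -0.39 ± 0.11 and Sox7 by -0.196 ± 0.22 between HDAd-gE3 and HDAd-0. Venous and lymphatic endothelial genes were 6 of 8 higher (median 0.025) and 6 of 8 lower (median -0.061) in these comparisons.

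**Figure D5:**
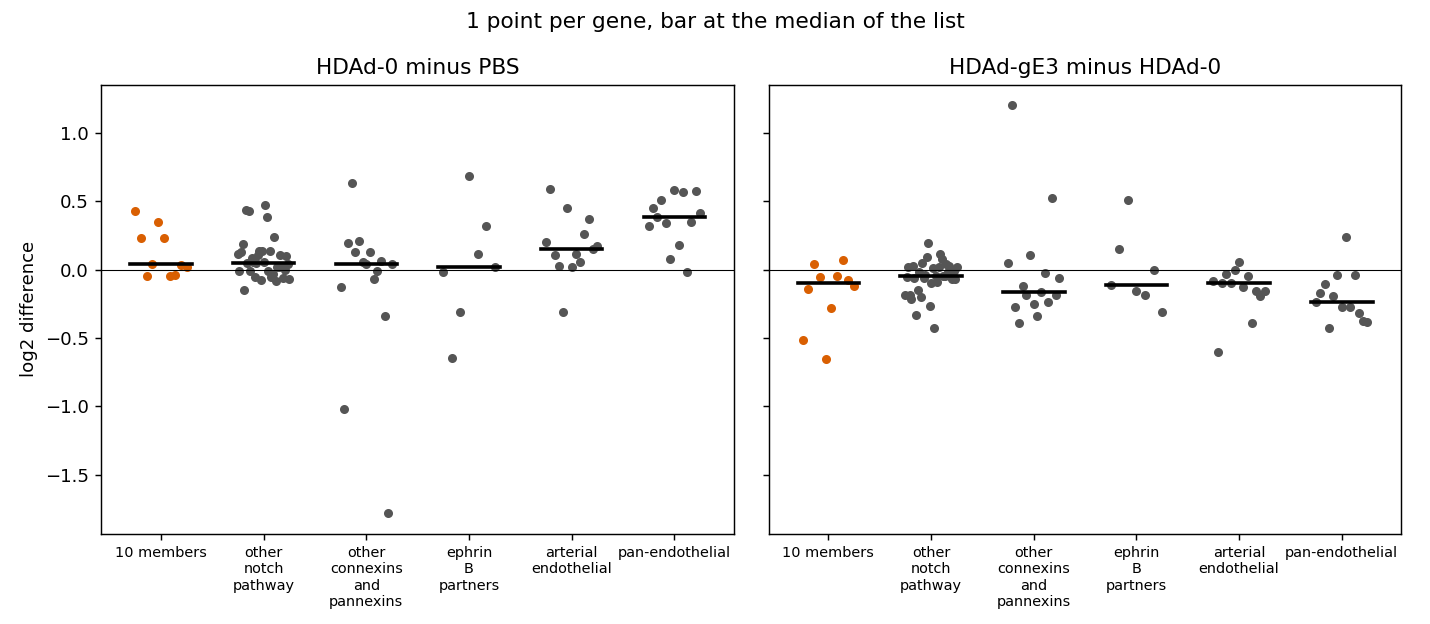
Log2 difference between groups (vertical axis) for HDAd-0 minus PBS and HDAd-gE3 minus HDAd-0 (panels), 1 point per gene; the lists are on the horizontal axis and bars are list medians. The 10 members have medians of 0.038 and -0.099, and the endothelial identity genes lie farther from 0, at 0.39 and -0.24.

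Across the 9 arrays, the pairs of members whose leading probe sets were most alike were Hey2 with Efnb2 (Pearson r 0.895) and Gja4 with Dll4 (0.777). After each group's mean was subtracted, Hey2 and Efnb2 still gave 0.892, while Gja4 with Dll4 gave 0.088 and Gja4 with Notch4 went from 0.766 to -0.10. Notch1 with Dll4 gave 0.713 and, within groups, 0.942. Notch4 with Dll4 gave 0.509 over the arrays and -0.653 within groups, a change of sign that rests on few arrays and was not tested. The arrays are separate pools that share group treatment and 1 normalization, and these values describe these 9 arrays alone.

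Over 18192 other genes, those whose signal was most like that of Gja4 were Irf8 (Pearson r 0.982 over 9 arrays), Shtn1, Clec4f, Mycl and Il4i1 (0.952). For Notch4 they were Enox2 (0.966), Prrt4, Zfp982, Cln8 and Erap1 (0.941), for Dll4 Coro2a (0.973), Tmem179, Slco1a1, Krt14 and Bmp6 (0.957), and for Gja5 Dph5 (0.978), Slc2a9, Sncaip, Slx4ip and Txndc12 (0.951). No gene was named for 2 of these 4 members. Within groups the r of Irf8 with Gja4 was 0.953, while Mycl gave 0.742 and Clec4f 0.647. The genes were picked for a high r among 18192, so its size is no support for a link.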

How the data were processed

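The authors deposited log2 signals per probe set, and the submitters' processing notes name RMA without a version. RMA makes the distributions of the arrays alike, which hides a shift common to most genes. RNA was labelled with the FL-Ovation kit, per the labels' protocols. Of 45101 probe sets 64 were controls. The platform annotation gave 1 gene for 34945, several for 932 and none for 9160. Models were fitted to all 45037 others over 9 arrays (lmFit, eBayes; limma 3.58.1 in R 4.3.3; 6 residual degrees of freedom), with Benjamini-Hochberg adjustment and a threshold of 0.05. No filter on low signals was used, so all 24 member probe sets were tested. Lists used the probe set with the highest mean of each of 18193 genes. The rule names all members, the 3 genes of each Notch, connexin, ephrin and arterial list with the largest difference in either comparison with HDAd-0, and the 5 genes most like Gja4, Gja5, Notch4 and Dll4. Members and lists were chosen with earlier results of these data known. The procedure was tested on simulated data. Figures used matplotlib 3.10.9.

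Replicate numbers come from the labels, and no label says that a shared number marks a batch. The numbers in the sample titles do not mix the groups, so if they mark an order, order and group cannot be told apart. Pools are described as separate sets of aortas. Alternatives were other choices of probe set, a filter, other scalings, array weights, an intensity trend, 2 groups only, a replicate block, a control covariate, another threshold and leaving out arrays.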

Additional observations from a re-analysis of the deposited data

How the results depend on the processing

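No member passed the adjusted threshold under any alternative but the subtraction of the endothelial mean, which moved Gja1, Notch1, Jag1, Hey1, Hey2 and Efnb2 past it, lower, in HDAd-0 against PBS, as it did 25395 of all 45037 probe sets. Under all others Gja4 gave 0.38 to 0.48 for HDAd-0 against PBS and -0.58 to -0.39 for HDAd-gE3 against HDAd-0, Notch4 0.20 to 0.49 and -0.82 to -0.36, Dll4 0.0996 to 0.29 and -0.42 to -0.15, and Gja5 0.147 to 0.31 and -0.225 to -0.062. For HDAd-0 against PBS the sign of Notch1, Hey1, Hey2, Efnb2 and Gja1, all near 0, turned under 1 to 5 of 21 settings, that subtraction included, and the sign of Dll4, Gja5 and Notch4 under that subtraction alone (-0.132, -0.133 and -0.017). The filter on low signals left out Dll4 and Gja5.

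Counts of probe sets past the threshold moved, from 4, 0 and 1 (HDAd-0 against PBS, HDAd-gE3 against HDAd-0, HDAd-gE3 against PBS). They were 12, 1 and 23 with 1 probe set per gene, 15, 1 and 24 with the mean of a gene's probe sets, 35, 3 and 74 in the brighter probe sets, and 25395, 580 and 33 with the endothelial mean subtracted, where the medians of the members were -0.324, 0.101 and -0.211. For HDAd-0 against PBS and HDAd-gE3 against PBS they were 23 and 86 with an intensity trend, 0 and 12 with the 2 groups alone, 0 and 0 with the 3′ minus 5′ covariate, 1 and 0 without both HDAd-0 replicate 5 and HDAd-gE3 replicate 4, and 47 and 70 at a threshold of 0.1; array weights gave 279 for the latter. Leaving out each array gave 0 to 542, 0 to 402 and 0 to 12, with 542 and 402 without HDAd-0 replicate 4. The causes were not tested. Non-overlap counts without named arrays were added after seeing the data.

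The groups share only the replicate numbers 3 and 4, and the deviations of same-numbered arrays correlated at 0.011 to 0.128. With a replicate block 0 and 0 probe sets passed in the comparisons with PBS (2 residual degrees of freedom), and Gja4 gave 0.404 and -0.394.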
